A study of Ictidomys tridecemlineatus with 15 samples.

Results

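Amacrine cells were compared with late neurogenic progenitors inside the same libraries of the developing retina of the 13-lined ground squirrel (13LGS, Ictidomys tridecemlineatus), a rodent whose retina is rich in cones. The members were the cells that the deposited cell table annotates as amacrine cells or as late-stage neurogenic retinal progenitor cells, in every library of postnatal day 1, 4, 8 or 12 (P1, P4, P8, P12) with at least 10 cells of both types. They numbered 9759 of the 53394 cells of the series: 8348 amacrine cells and 1411 late neurogenic progenitors, from 7 libraries that held 23430 cells in all. These are 70.0% of all amacrine cells and 93.5% of all late neurogenic progenitors in the table.

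The series profiled whole retinas by 10x 3′ single-cell RNA sequencing from embryonic day 18 (E18) to P21. Every postnatal group used here is retina of the stated age from captive-bred litters. The E26 library read beside them is embryonic retina, which the study took from timed pregnant captive dams. The labels give no genotype, strain or treatment. The labels do not say whether libraries came from separate animals, so p-values measure only the spread between these libraries. Retinas for single-cell work were either methanol-fixed, for cells, or flash-frozen, for nuclei, and the labels do not say which applied to these libraries.

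Amacrine cells are inhibitory interneurons of the inner retina. Many release GABA or glycine, and they shape the signals that pass from bipolar cells to ganglion cells. Neurogenic progenitors are cells about to leave the cell cycle and form neurons, and those of the late stage in rodents give rise to photoreceptors, bipolar cells and late-born amacrine cells.

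The libraries are named by time point, with a and b for separate cell name suffixes. P1a held 845 amacrine cells and 249 progenitors, and P1b held 1243 and 203. P4 held 1263 amacrine cells and 393 progenitors. P8a held 1430 and 289, P8b 315 and 33, P12a 1824 and 127, and P12b 1428 and 117. P8b was thus the smallest library of both types, with 84310 UMIs (unique molecular identifiers, each standing for 1 captured RNA molecule) in its progenitor sum. The other progenitor sums held 300915 to 874828 UMIs, and the amacrine sums held 696113 to 5893045. P1 has 2 suffixes but 1 sample in the labels, so 1 of them cannot be tied to a labelled sample. Values without P1 are given beside the results that rest on it or in the closing sections. Any pair of the 7 libraries shared 0 to 8 cell barcodes.

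The matrix rows cannot be paired with gene names, because the list of names has 30265 entries and the matrix 34181 rows. Genes are therefore given by row number, counted from 1, and marker genes of the cell types could not be read. The annotated classes were described instead by assigning each cell to the most similar of 12 mean profiles, one per annotated type, made from the other libraries. The authors named the types from clusters of these same expression data, so agreement is partly built in and is no independent check of the annotation. Among the 7 libraries, early-stage primary progenitors reached 10 cells in P1b alone, so cells of P1b were set against 11 profiles. Of the amacrine cells, 87.8% were nearest the amacrine profile and 6.89% nearest the late neurogenic profile. Of the late neurogenic progenitors, 61.9% were nearest their own profile, 17.4% nearest photoreceptor precursors and 15.7% nearest late-stage primary progenitors, the dividing cells from which they arise. The amacrine profile was nearest for 2 of the 1411 progenitors (0.142%). By this measure the progenitor class was less distinct than the amacrine one, and the amacrine profile was almost never nearest its cells.

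The profiles nearest the other progenitors differed by library age. Each profile pooled the other libraries, and the types spread differently over the ages, so likeness in type and in age cannot be told apart here. Late-stage primary progenitors were nearest for 45.8% of the progenitors of P1a (95% Wilson interval 39.7 to 52.0), 26.6% in P1b (20.998 to 33.1) and 13.2% in P4 (10.2 to 16.9). In P8b they were nearest for 2 of 33, and in P8a, P12a and P12b for none, which allows shares of up to 1.31%, 2.94% and 3.18% by the same interval. Photoreceptor precursors went the other way: 0.402% in P1a, 1.48% in P1b and 7.12% in P4, but 42.6% in P8a, 15.2% in P8b, 26.8% in P12a and 44.4% in P12b. Amacrine cells were nearest the late neurogenic profile for 16.8%, 17.4% and 15.4% of cells in P1a, P1b and P4, and for 3.49% or less in each P8 and P12 library. Amacrine cells nearest the progenitor profile were thus mostly cells of P1 and P4. These intervals, like all intervals on counts here, cover counting error only.

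The number of amacrine cells per late neurogenic progenitor was 3.39 in P1a (exact 95% interval 2.94 to 3.92), 6.12 in P1b (5.27 to 7.14) and 3.21 in P4 (2.87 to 3.61). It was 4.95 in P8a (4.36 to 5.63), 9.55 in P8b (6.66 to 14.1), 14.4 in P12a (11.99 to 17.3) and 12.2 in P12b (10.1 to 14.9). Both P12 libraries lay above all P1, P4 and P8 libraries. Against postnatal day, the log2 ratio had a Pearson's r of 0.81 (exact two-sided permutation p = 0.0444, n = 7 libraries) and a Spearman's rho of 0.75 (exact permutation p = 0.0635). Without the 2 P1 libraries, which are also those farthest from the median age, r was 0.92 (exact permutation p = 0.0333, n = 5) and rho was 0.95 (exact permutation p = 0.0667). With 1 library left out in turn, the p of r passed 0.05 without P1b alone (r 0.92, exact permutation p = 0.0167, n = 6), and without the other libraries the exact permutation p of r ran from 0.0556 to 0.122. Likewise rho was 0.91 without P1b (exact permutation p = 0.0222) and 0.62 without P12a or without P12b (exact permutation p = 0.244). Libraries of a time point share its age, and over the 4 time point means r was 0.87 (exact permutation p = 0.125) and rho was 0.80 (exact permutation p = 0.333). Cells recovered from a dissociated retina are not a count of cells in the tissue.

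The number of UMIs per cell did not differ between the types beyond the spread between libraries. Library medians ran from 1572 to 3598 UMIs per amacrine cell and from 1373 to 4769 per progenitor. The log2 ratio of the medians was -0.05 ± 0.23 (SD, n = 7), with the amacrine median higher in 4 libraries (exact two-sided sign-flip permutation p = 0.531). When each cell was thinned to 1000 UMIs, which left out 68 amacrine cells and 11 progenitors, the median amacrine cell had 639 to 685 detected genes by library and the median progenitor 589 to 670. The difference, amacrine minus progenitor, was -16 genes in P1a, -5 in P1b and 4 in P4. It was 47 in P8a, 15 in P8b, 78 in P12a and 91 in P12b. Its mean was 30.6 ± 41.9 genes (SD, n = 7; exact sign-flip permutation p = 0.156, where the smallest possible is 0.0156). Without thinning the mean difference was 16.6 genes (exact sign-flip permutation p = 0.719), and without P1 it was 47.0 (exact sign-flip permutation p = 0.0625, n = 5, the smallest possible there).

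Expression differed between the types for a large share of genes. UMIs were summed per library and type, and the 2 sums of each library were compared with edgeR's quasi-likelihood test, with the library as a block. Of 7819 rows that passed the filter on low counts, 3094 (39.6%) had a Benjamini-Hochberg adjusted p below 0.05. They comprised 1621 rows higher in amacrine cells (20.7%) and 1473 higher in late neurogenic progenitors (18.8%). Without P1 the count was 2641. The authors named the types by markers found in these very cells. The counts therefore describe 2 annotated classes, and which called rows served for the naming cannot be read without gene names. The median log2 difference over all tested rows was 0.02.

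The differences on the amacrine side were larger. At 2-fold or more, 758 rows were higher in amacrine cells (9.69% of tested rows) and 511 were lower (6.54%). The amacrine sums were also the deeper ones. With the sums of each library thinned to the smaller of the pair, 636 were higher and 465 lower, of 7002 tested. At 4-fold or more the numbers were 312 and 151, at 8-fold 157 and 58, and at 16-fold 71 and 16. The median log2 difference was 0.94 for rows higher in amacrine cells (quartiles 0.62 and 1.65) and -0.75 for rows lower in them. The sums of the 2 types did not overlap, over all 7 libraries, for 419 of the 1621 higher rows (25.8%) and for 241 of the 1473 lower rows (16.4%), against 660 of all tested rows (8.44%). Called rows were found at every level of abundance: with the tested rows split by mean level into 4 equal bins, 31.3%, 38.8%, 41.1% and 47.1% were called from the lowest bin to the highest. At 2-fold or more, the lowest bin held 241 rows higher and 122 lower in amacrine cells, and the highest bin 133 and 109.

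**Figure D1:**
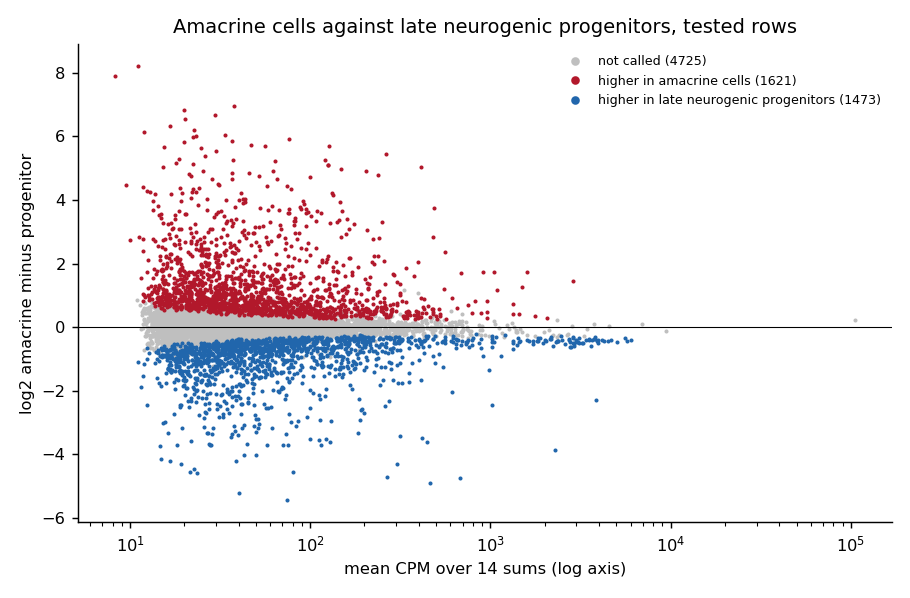
Each point is a tested row. The horizontal axis gives its mean level over the 14 sums in CPM (log axis), which are UMIs per 1e6 UMIs of a sum's tested rows, scaled by TMM factors. The vertical axis gives the log2 difference, amacrine cells minus late neurogenic progenitors. Rows called at an adjusted p below 0.05 are colored, 1621 above 0 and 1473 below, and the points above 0 reach farther from it.

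These rows carried a modest part of the RNA. The 758 rows at least 2-fold higher in amacrine cells took 8.03% ± 0.81 of the UMIs of amacrine cells (SD, n = 7) and 2.21% ± 0.66 of those of progenitors. The 511 rows at least 2-fold lower took 1.88% ± 0.32 and 6.37% ± 0.70. The rows were chosen on these sums, so the shares are a description. The rows were sparse per cell, as tested rows were in general. At 1000 UMIs per cell, the median row of the 758 had a UMI in 4.64% of amacrine cells and in 1.35% of progenitors, and 8 of them were seen in over 50% of amacrine cells. The median row of the 511 had a UMI in 5.49% of progenitors and in 1.67% of amacrine cells, and 6 were seen in over 50% of progenitors. Over all tested rows the medians were 3.91% of amacrine cells and 3.61% of progenitors.

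The largest rises by the rule for naming rows were rows 25965 and 26940. The rule asks for a mean of at least 50 CPM in the higher type and the same direction in every library. CPM here are UMIs per 1e6 UMIs of a sum's tested rows, scaled by TMM factors. Row 25965 stood at 75.3 CPM in P1a, 139 in P1b, 72.8 in P4, 51.8 in P8a, 60.2 in P8b, 38.1 in P12a and 75.3 in P12b in amacrine cells. In progenitors it had 1 UMI in P8a (1.60 CPM), 1 UMI in P8b (11.3 CPM) and 0 in the other 5 libraries. A count of 3 UMIs, the most that a count of 0 allows, is worth 3.43 to 35.6 CPM in the progenitor sums, so the value in P8b rests on the shallowest sum. The types did not overlap. Over all libraries the row had 1718 UMIs in amacrine cells and 2 in progenitors, a ratio relative to all UMIs of 141 with an exact 95% counting interval of 38.9 to 1164. The fitted log2 difference was 6.96 (SE 0.46, edgeR adjusted p = 1.5e-07), a value that depends on the prior count added by the fit.

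Row 26940 stood at 92.2 CPM in P1a, 108 in P1b, 63.8 in P4, 24.4 in P8a, 63.0 in P8b, 36.1 in P12a and 22.5 in P12b in amacrine cells. Progenitors had 1 UMI in P1a (1.18 CPM), 1 UMI in P12a (3.66 CPM) and 0 in the other 5 libraries. Amacrine cells were again above progenitors in each library, with the lowest amacrine values at P8a and P12b. The totals were 1218 and 2 UMIs, a ratio of 99.9 (exact 95% counting interval 27.6 to 826), with a fitted log2 difference of 6.67 (SE 0.42, edgeR adjusted p = 1.2e-07). Within amacrine cells the level of row 26940 fell with age, with a log2 slope of -0.17 per day (SE 0.03, edgeR adjusted p = 0.00984). The difference between the types was not called as changing with age (edgeR adjusted p = 0.499). At 1000 UMIs per cell, row 25965 had a UMI in 6.48% ± 2.73 of amacrine cells (SD, n = 7 libraries) and row 26940 in 4.13% ± 2.38. Row 26940 was seen in 0 of 1400 thinned progenitors, which at this depth allows cells with a UMI a share of up to 0.214%, although the full sums held 2 UMIs. It was seen in 0.0947% ± 0.166 of late-stage primary progenitors.

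The largest falls were rows 12414 and 31833. Row 12414 stood at 168 CPM in P1a, 89.9 in P1b, 102 in P4, 168 in P8a, 90.7 in P8b, 242 in P12a and 153 in P12b in progenitors. In amacrine cells it stood at 4.47, 3.86, 6.48, 5.30, 8.40, 1.31 and 0.165 CPM in the same order. Every progenitor value exceeded every amacrine value, and the log2 difference was -5.44 (SE 0.43, edgeR adjusted p = 6.3e-07). The row was also among those whose difference changed with age, treated below, with a slope of -0.22 per day (SE 0.06, edgeR adjusted p = 0.0157). Neither type alone was called as changing (edgeR adjusted p = 0.317 in amacrine cells and 0.345 in progenitors). The amacrine values of P8b, P12a and P12b rest on 6, 6 and 1 UMIs. At 1000 UMIs per cell the row had a UMI in 10.9% ± 4.32 of progenitors (SD, n = 7) and in 0.505% ± 0.551 of amacrine cells.

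Row 31833 stood at 91.0 CPM in P1a, 76.2 in P1b, 49.2 in P4, 60.8 in P8a, 79.3 in P8b, 95.2 in P12a and 96.1 in P12b in progenitors. In amacrine cells its levels were 2.41, 3.31, 2.49, 2.06, 0, 1.09 and 1.98 CPM, where the 0 in P8b allows up to 3 UMIs, or 4.31 CPM. The levels again did not overlap. Progenitor levels ran from 49.2 to 96.1 CPM between libraries, and that of P8b rests on 7 UMIs. The log2 difference was -5.21 (SE 0.27, edgeR adjusted p = 4.6e-08).

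**Figure D2:**
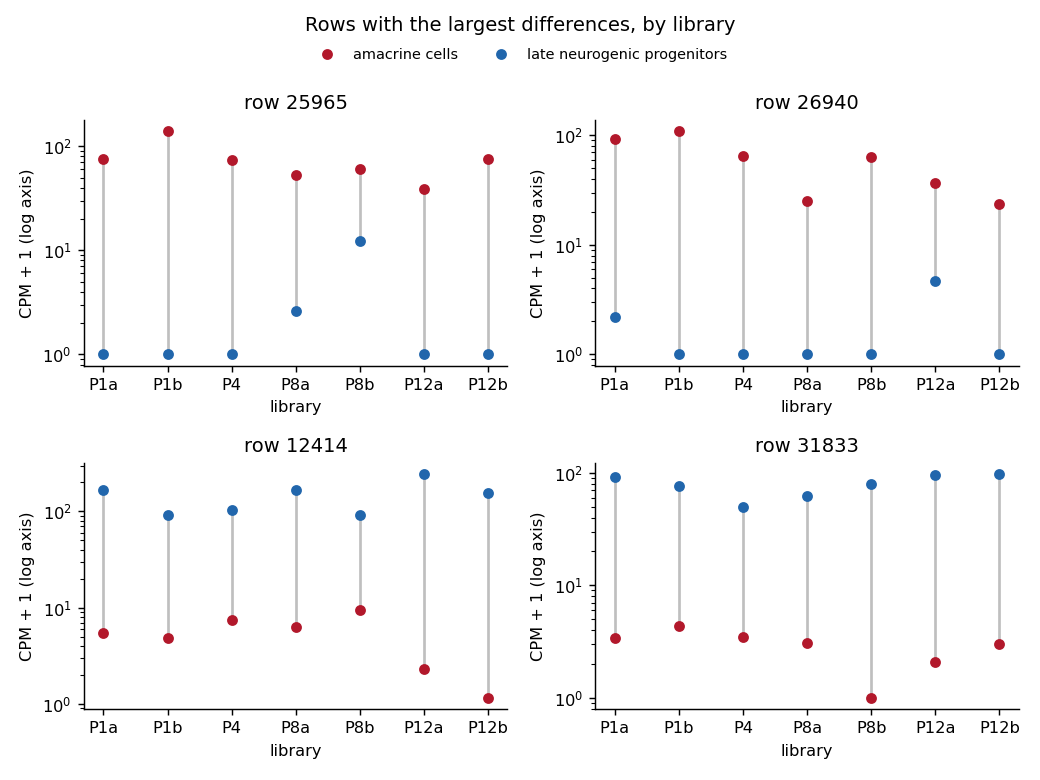
Levels of the 4 named rows in each library, as CPM plus a pseudocount of 1 on a log axis, for amacrine cells (red) and late neurogenic progenitors (blue). Gray lines join the 2 types of a library. Rows 25965 and 26940 lie higher in amacrine cells in all 7 libraries, and rows 12414 and 31833 lower.

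The named rows were not restricted to the 2 types. Row 25965 was at 154 ± 71.6 CPM in horizontal cells (SD, n = 7 libraries), which like amacrine cells are inhibitory interneurons, and at 14.6 ± 7.88 in ganglion cells. Row 26940 was at 83.6 ± 49.2 CPM in ganglion cells and at 7.50 ± 9.64 in horizontal cells. Row 12414 was at 69.7 ± 20.2 CPM in early-stage neurogenic progenitors (n = 3), 28.5 ± 11.1 in photoreceptor precursors (n = 7), 22.7 ± 6.65 in late-stage primary progenitors (n = 7) and 14.1 ± 15.3 in cones (n = 4). Row 31833 was at 33.0 ± 26.3 CPM in late-stage primary progenitors (n = 7), 12.5 ± 4.54 in bipolar cells (n = 4) and 9.34 ± 8.22 in photoreceptor precursors (n = 7).

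The rows called at 2-fold or more were also read in the 6 types with at least 10 cells in all 7 libraries. The 758 rows that were at least 2-fold higher in amacrine cells lay, relative to late neurogenic progenitors, at a median log2 difference of 1.87 in amacrine cells, 2.17 in ganglion cells, 1.32 in horizontal cells, 0.53 in photoreceptor precursors and -0.07 in late-stage primary progenitors. Ganglion cells held the highest level of 391 of them (51.6%), amacrine cells of 242 (31.9%) and horizontal cells of 118 (15.6%). Over all tested rows, those 3 types held the highest level of 29.8%, 13.9% and 15.7%. Most of the 758 rows were therefore higher in ganglion or horizontal cells than in amacrine cells. The 511 rows that were at least 2-fold lower in amacrine cells lay at medians of -1.30 in amacrine cells, -1.61 in ganglion cells, -1.73 in horizontal cells, -0.39 in photoreceptor precursors and 0.09 in late-stage primary progenitors. Their highest level was in late-stage primary progenitors for 243 rows (47.6%), in late neurogenic progenitors for 138 (27.0%) and in photoreceptor precursors for 92 (18.0%). The rows were chosen on amacrine cells and late neurogenic progenitors, so the values of these 2 types follow from that choice and those of the other types do not, apart from the shared progenitor reference.

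**Figure D3:**
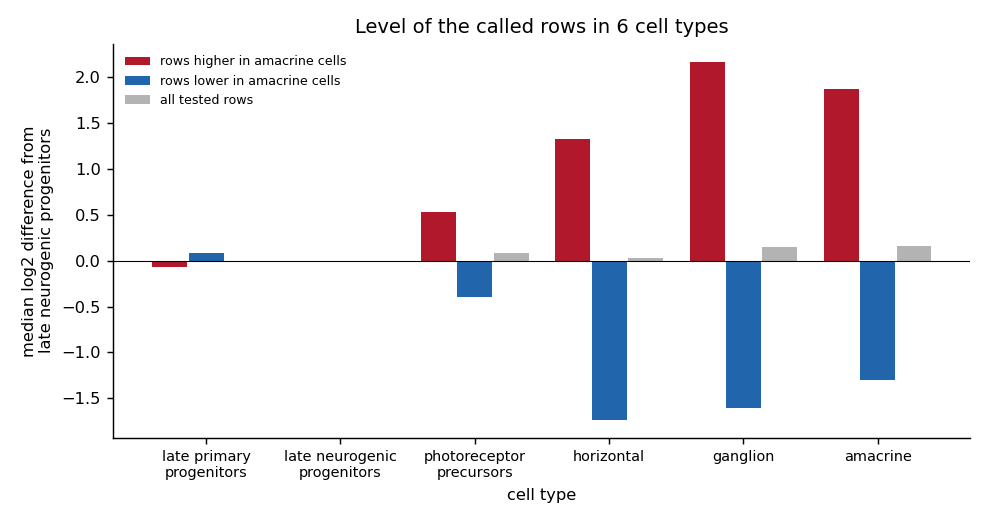
Median log2 difference of each cell type from late neurogenic progenitors, which are at 0 by construction. Red bars give the 758 rows at least 2-fold higher in amacrine cells, blue bars the 511 rows at least 2-fold lower, and gray bars all 7819 tested rows. Ganglion and horizontal cells lie on the amacrine side for both sets, and late-stage primary progenitors lie near 0.

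The direction of the difference was then read in libraries that took no part in the choice of rows. The authors named the types in all libraries together, these included, so the labels there were not independent of such rows. For P1, P8 and P12, another library of the same age also stayed in the fit. Each library was left out in turn, rows were called on the other 6, and the left-out library was compared on those rows. Between 77.5% (P8b) and 95.1% (P4) of called rows went the same way there, beside 64.1% to 77.0% of all tested rows. In every left-out library, rows higher in amacrine cells went the same way more often than rows lower in them. The gap was widest in P12b, at 97.4% of the higher and 77.1% of the lower called rows. All tested rows there had 88.8% and 53.1%. Left-out libraries were read in CPM without TMM scaling. For called rows of at least 2-fold the shares were 83.2% (P8b) to 97.8% (P4). In P8b, 527 of the 3719 called rows had no UMI in progenitors, which puts the amacrine value at or above the progenitor value whatever the row's level.

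Libraries outside the 4 time points were read in the same way, and their cell types were named in the same joint step. An E26 library held 108 amacrine cells and 37 late neurogenic progenitors, and the P17 library 1872 and 51. Of the 3094 called rows, 2498 (80.7%) went the same way at E26 and 2613 (84.5%) at P17, beside 68.3% and 68.6% of all tested rows. By direction, 84.9% of the higher and 76.2% of the lower called rows did so at E26, beside 72.3% and 64.1% of tested rows. At P17 the shares were 90.9% and 77.4%, beside 78.3% and 58.3%. Of the rows called at 2-fold, 1109 (87.4%) and 1160 (91.4%) did so. Progenitors had no UMI of 364 of the 3094 rows at E26 and of 155 at P17, which fixes the side as in P8b. The median log2 difference of the rows at least 2-fold higher in amacrine cells was 2.15 at E26 and 1.83 at P17, and that of the rows at least 2-fold lower was -1.30 and -1.52. Row 25965 was at 143 CPM in amacrine cells at E26 and 38.4 at P17, with no UMI in progenitors in either library. Row 26940 was at 36.3 and 24.6 CPM in amacrine cells, against 0 and 5.92 CPM (1 UMI) in progenitors, and its log2 difference of 1.89 at P17 was below that of each of the 7 libraries. Row 12414 was at 92.9 and 207 CPM in progenitors, against 2.59 and 0.568 CPM in amacrine cells.

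**Figure D4:**
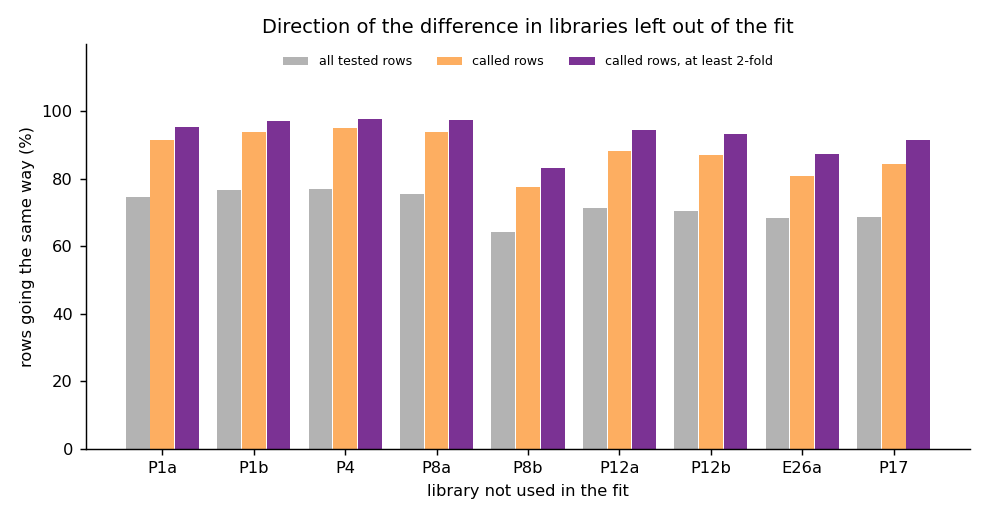
Percent of rows whose difference in a library went the same way as in a fit that did not use that library, for all tested rows (gray), called rows (orange) and called rows of at least 2-fold (purple). The 7 libraries from P1a to P12b were left out in turn, and E26a and P17 lie outside the time points compared. In every library the called rows stand above the tested rows, and P8b, with 33 progenitors, has the lowest shares.

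The difference between the types changed with age for a smaller number of rows. The product of type and postnatal day was called for 1179 of 7819 rows (15.1%) by edgeR's test with adjusted p below 0.05. For 504 rows (6.45%) the amacrine level rose relative to the progenitor level from P1 to P12, and for 675 (8.63%) it fell. Over the 11 days the fitted difference moved by at least 2-fold for 383 and 464 of them. For the 504 rows the median log2 difference was -0.73 at P1 and 0.55 at P12, and 341 of them (67.7%) changed sign between the 2 ages. For the 675 rows it was 0.33 and -0.79, and 330 (48.9%) changed sign. Among all tested rows 32.9% changed sign. The 504 and 675 rows were chosen on the slope of this same difference, so their movement and sign changes are a description. The count of called rows was 316 without P1, 694 without P1a and 682 without P12b, against 857 without P12a of the same age. The profiles nearest the progenitors also differed between these ages, as given above, and the part of that difference in these rows was not tested.

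Rows 21627 and 8935 had the largest rise of the difference. Row 21627 went from 15.1 CPM in P1a and 18.2 in P1b to 80.8 in P4, 91.5 in P8a, 140 in P8b, 115 in P12a and 127 in P12b in amacrine cells. In progenitors it went from 141 and 245 CPM at P1 to 110 in P4, 25.6 in P8a, 68.0 in P8b, 18.3 in P12a and 12.3 in P12b. The types thus exchanged places between P4 and P8. The log2 difference rose by 0.66 per day (SE 0.04, edgeR adjusted p = 5.2e-11). Within amacrine cells alone the slope was 0.22 per day (SE 0.06, edgeR adjusted p = 0.0309), and within progenitors it was -0.34 (SE 0.04, edgeR adjusted p = 6.9e-05). The libraries outside the fit lay at or beyond both ends. At E26 the row was at 7.78 CPM (3 UMIs) in amacrine cells and 305 in progenitors, and at P17 at 145 and 5.92 (1 UMI). The progenitor values of P12a and P12b rest on 5 and 6 UMIs, so the progenitor level at P17 cannot be told from theirs. Horizontal cells held more of this row than either type, at 541 ± 168 CPM (SD, n = 7).

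Row 8935 stood at 26.1 CPM in P1a, 17.7 in P1b, 56.3 in P4, 98.6 in P8a, 140 in P8b, 171 in P12a and 141 in P12b in amacrine cells. In progenitors it was at 18.9, 18.3, 15.3, 4.80, 22.7, 3.66 and 0 CPM, the last 4 of these on 3, 2, 1 and 0 UMIs. The levels of the types lay close together at P1, and the amacrine level alone passed the test of a change with age: its slope was 0.24 per day (SE 0.04, edgeR adjusted p = 0.00314), against -0.25 (SE 0.08, edgeR adjusted p = 0.069) in progenitors. The slope of the difference was 0.55 per day (SE 0.06, edgeR adjusted p = 7.9e-07). At E26 the row was at 18.1 CPM in amacrine cells and 13.3 in progenitors, and at P17 at 153 and 17.8 (3 UMIs), where the log2 difference of 3.04 was smaller than the 5.20 and 7.15 of the P12 libraries. Ganglion cells were at 170 ± 52.7 CPM (SD, n = 7).

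Rows 25956 and 11460 had the largest fall of the difference. Row 25956 went from 44.0 and 53.8 CPM at P1 to 39.9 in P4, 27.4 in P8a, 21.01 in P8b, 15.2 in P12a and 16.7 in P12b in amacrine cells. Progenitors went from 5.91 and 4.57 CPM at P1 to 22.0 in P4, 65.6 in P8a, 11.3 in P8b (1 UMI), 150 in P12a and 145 in P12b. Amacrine cells were thus higher at P1 and P4 and progenitors at P12, and at P8 the 2 libraries differed in order. The slope of the difference was -0.55 per day (SE 0.04, edgeR adjusted p = 8.6e-11), with -0.16 in amacrine cells (SE 0.02, edgeR adjusted p = 0.0029) and 0.41 in progenitors (SE 0.04, edgeR adjusted p = 4e-05). At E26 the row was at 64.8 CPM in amacrine cells and 13.3 in progenitors, and at P17 at 7.67 and 101.

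Row 11460 fell in amacrine cells from 2741 CPM in P1a and 844 in P1b to 342 in P4, 184 in P8a, 133 in P8b, 109 in P12a and 59.3 in P12b. Progenitors held 136 and 65.6 CPM at P1, 79.7 in P4, 101 in P8a, 170 in P8b, 370 in P12a and 225 in P12b. It was the most abundant of the 4 rows, and in amacrine cells P1a stood far above every other library. The slope of the difference was -0.53 per day (SE 0.02, edgeR adjusted p = 1e-13), with -0.41 in amacrine cells (SE 0.05, edgeR adjusted p = 0.00137) and 0.14 in progenitors (SE 0.04, edgeR adjusted p = 0.0165). At E26 the row was at 1273 CPM in amacrine cells and 146 in progenitors, and at P17 at 187 and 870.

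**Figure D5:**
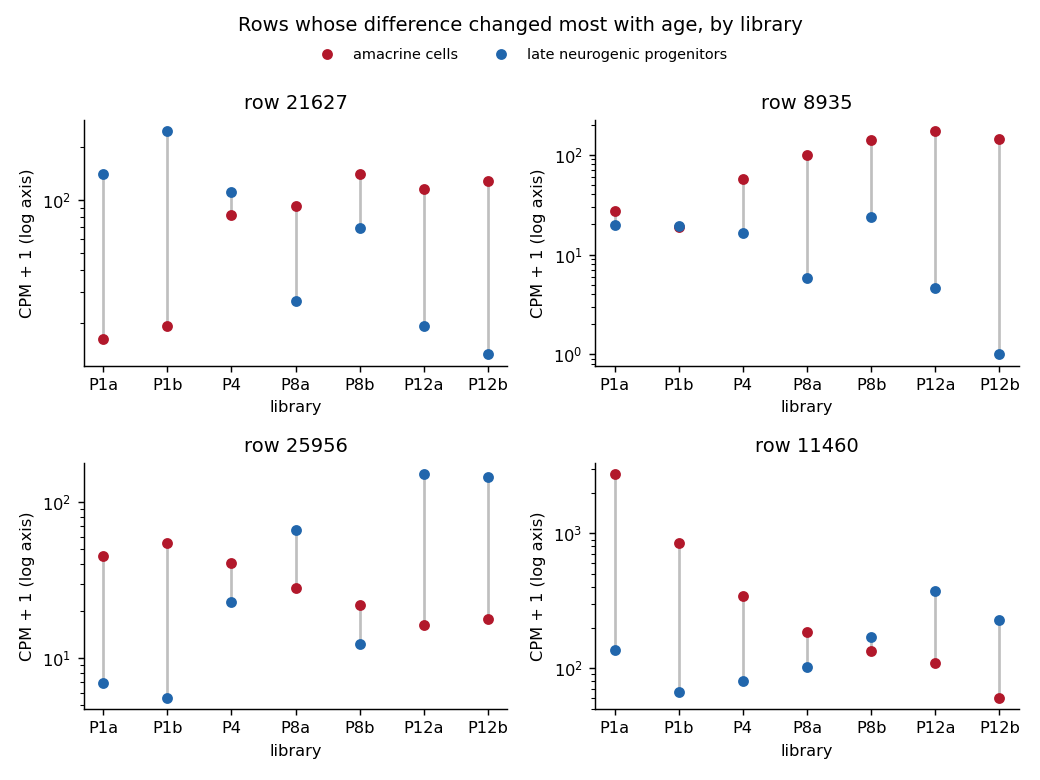
Levels of the 4 rows whose difference moved most with age, as CPM plus a pseudocount of 1 on a log axis, for amacrine cells (red) and late neurogenic progenitors (blue) in libraries ordered by age. Amacrine levels of rows 21627 and 8935 lie higher at P12 than at P1, and those of rows 25956 and 11460 lie lower. In rows 21627, 25956 and 11460 the types change order between P1 and P12.

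Each type was also followed on its own. Within amacrine cells 1287 of 13231 tested rows (9.73%) changed with postnatal day by edgeR's test with adjusted p below 0.05, 788 upward (5.96%) and 499 downward (3.77%). The count was 325 without P1, with 148 upward and 177 downward so that the majority turned, and it was 664 without P1a, 582 without P12a and 797 without P12b. Within late neurogenic progenitors 637 of 7357 tested rows (8.66%) changed, 280 upward (3.81%) and 357 downward (4.85%), and the count was 221 without P1 and 334 without P1a. The amacrine sums are deeper, so more rows could be tested in them. Among the 7301 rows tested in both types, 532 were called in amacrine cells and 610 in progenitors. Of these, 175 were called in both, 32.9% of the amacrine calls and 28.7% of the progenitor calls, and 161 of the 175 moved in the same direction in the 2 types. The share of all 7301 rows with slopes of the same direction was not measured, so the agreement in direction has no background beside it. The sums of both types come from the same libraries, so whatever a library shares enters both.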

How the data were processed

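Per the study's methods, the authors aligned 10x 3′ v3.1 reads with Cell Ranger 3.1.0 to the HiC_Itri_2 assembly, joined the libraries, and named cell types in Seurat 4.0.4 from markers of each cluster. They deposited UMI counts per gene and cell, whole and not normalized, with a table of cell names, time points and types. The sources used here do not state cell filters or doublet removal, and all deposited cells were kept. In total 444 amacrine cells (5.32%) and 95 progenitors (6.73%) had more than 2 times the median UMI count of their library and type.

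Counts were summed per library and type and tested with edgeR 4.0.16 in R 4.3.3 (filterByExpr, TMM, a trimmed-mean scaling of library sizes, glmQLFit, glmQLFTest, library as a block), in place of the study's tests on single cells. Both sums of a library come from the same sample, which is the source of the pairing. SE is the size of the log2 difference over the square root of F. CPM of the named rows were TMM-scaled, and those of other types and of E26 and P17 were not. Log2 differences of single libraries used CPM plus 1. Thinning drew 1000 UMIs per cell without replacement. Profiles were compared on counts per 10000. For each of the 2 gene comparisons, the rows with the largest rise and fall were named, 2 each way, with at least 50 CPM in the higher type and, for the first, 1 direction in all libraries. The members and lists were chosen with earlier results of these data known. Scripts were tested on simulated data.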

Additional observations from a re-analysis of the deposited data

Results flagged for a closer look

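In 23 groups of library values, those of the named rows among them, 5 had a library far from the others. The criterion picks out about 1 in 20 groups by chance when values are normally distributed, which single UMIs among zeros are not. Row 25965 was at 139 CPM in the amacrine cells of P1b, while the other libraries lay between 38.1 and 75.3. In progenitors the same row was at 11.3 CPM in P8b, which is 1 UMI, with the others at 0 to 1.60. Row 26940 was at 3.66 CPM in the progenitors of P12a, also 1 UMI, with the others at 0 to 1.18. Row 11460 was at 2741 CPM in the amacrine cells of P1a, with the others between 59.3 and 844. The 758 rows at least 2-fold higher in amacrine cells took 3.61% of the UMIs of progenitors in P8b, which had 33 such cells, and 1.74% to 2.41% in the other libraries.

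The difference between the types itself changed with age for 1179 rows, by the test of type and postnatal day together. The slopes of the log2 difference were 0.66 per day for row 21627, 0.55 for row 8935, -0.55 for row 25956 and -0.53 for row 11460. Without P1 they were 0.45, 0.57, -0.51 and -0.52 in the same order. The largest edgeR adjusted p among them was then 0.00478, for row 8935.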

How the results depend on the processing

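The 8 named rows kept their direction and their side of the threshold under all alternatives run for them. The 3094 rows called between the types were 39.6% of 7819 tested. With no filter on low counts 5423 were called (3407 higher and 2016 lower in amacrine cells), a smaller share at 19.5% of 27791 tested. With no replicate block 1976 were called (25.3% of 7819). With 1 library left out the called rows numbered 2611 (33.4% of 7817, without P8a) to 3719 (37.6% of 9890, without P8b). With DESeq2 1.42.0 they numbered 2923 (37.4% of 7819), and without the cells of high UMI count 2827 (38.8% of 7285). With the sums thinned to the smaller of the pair they numbered 2532 (36.2% of 7002), 1274 higher and 1258 lower in amacrine cells. The 1179 rows whose difference changed with age (15.1% of 7819 tested) became 316 without P1 (78 upward, 238 downward), 4.18% of 7552. They became 178 with no replicate block and 691 when P8 and P12 were set against P1 and P4. With 1 library left out they numbered 682 (8.75% of 7790, without P12b) to 1467 (14.8% of 9890, without P8b). The rows that changed with age in amacrine cells, 1287 (9.73% of those tested), became 2276 with no filter (8.32%). Without P1 they were 325 (2.37%), with 148 upward and 177 downward. With 1 library left out they numbered 582 (4.35%) to 1394 (10.4%). In progenitors 637 (8.66%) became 1020 (4.98%), 221 (3.05%) and 334 (4.27%) to 749 (9.64%) under the same settings. Fewer samples were fitted where libraries were left out, and the cause of the other shifts was not tested. Left out in turn, libraries moved the log2 ratio of UMIs per cell from -0.0908 to 0.00949, the latter without P12b and of opposite sign, the difference in genes per cell from 20.5 to 38.3, and the rho of amacrine cells per progenitor with age from 0.62 to 0.91. It passed the threshold without P1b alone (rho 0.91). The requirement of 50 cells of each type removes P8b and gave 3719 rows (37.6% of 9890 tested). Depth limits the progenitor values most, since 1 UMI is worth 11.9 CPM in P8b before scaling.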
